A study of Drosophila melanogaster with 4 samples.

Results

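RNA levels of 10 genes of the ecdysone pathway were compared in late embryos of Drosophila melanogaster. Among them were the receptor genes EcR and usp and the response genes Eip74EF, Eip75B, Eip78C and br. The others were the nuclear receptor genes Hr4, ftz-f1, Hr39 and Hr38. All 10 were taken by symbol from a count table of 16727 genes. All 10 passed the filter on low counts, which left 11562 genes for testing. RNA of whole embryos was sequenced in 4 libraries, 2 for each genotype: deltaHisC; 12xH3.2-WT (group H3.2-WT) and deltaHisC; 12xH3.2-K4R (group H3.2-K4R). All embryos were laid over 2 h at 25 °C, aged for 16 h and therefore 16 to 18 h old. Both groups lacked the endogenous histone gene complex on both homologues, were picked by GFP, and drew their replication-dependent histones from a transgenic array of 12 gene copies. The groups differed in residue 4 of the transgenic histone H3.2, lysine in H3.2-WT and arginine in H3.2-K4R. The title of the series frames the comparison as a test of what this lysine does for Polycomb group function and for target gene expression. Background knowledge adds that the variant histone H3.3 comes from genes outside the deleted complex. The substitution itself cannot be read from gene counts.

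Ecdysone is the steroid hormone of insects. Its active form binds a heterodimer of 2 nuclear receptors, EcR and Usp (the fly relative of the vertebrate retinoid X receptors), which then switches on a small set of early genes that encode transcription factors. These factors act on a later set of nuclear receptor genes and on tissue-specific targets, and the order Hr3, Hr4, ftz-f1 recurs at several stages. The cascade is best known from moulting and metamorphosis, but a pulse of the hormone in mid-embryogenesis is also needed for head involution and for the first larval cuticle. The methyltransferase trr, which acts on the mutated lysine, is known as a coactivator of EcR.

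The libraries held between 33882742 and 45509930 counted read pairs. H3.2-K4R replicate 2 stood apart from the rest: on the first principal component of log2 CPM (counts scaled to library size), it lay at 75.8, while H3.2-K4R replicate 1 lay at 0.691 and the wild-type libraries at -45.5 and -31.0. Markers of neurons, muscle, trachea, epidermis and cuticle, blood cells and glia were present in every library. The 3 neuron markers (elav, nSyb, brp) summed to 1223 and 1390 CPM in H3.2-WT, against 1421 and 1495 in H3.2-K4R, and the 3 muscle markers (Mhc, wupA, Tm2) to 7085 and 7365 against 6260 and 5498. Trachea markers (trh, serp, verm) summed to between 3452 and 3771 CPM over the 4 libraries, epidermis and cuticle markers (Ddc, ple, Cht2) to between 183 and 243, blood cell markers (Hml, Pxn, srp) to between 269 and 314, and glia markers (repo, moody) to 105 and 128 in H3.2-WT against 89.1 and 84.5 in H3.2-K4R. Salivary gland glue genes (Sgs3, Sgs4) summed to between 4.53 and 6.43 CPM. The fat body genes Fbp1 and Lsp2, chosen as late embryo markers but known from the late larva, stayed at or below 1.34 CPM together. Fbp1 had 0 counts in H3.2-WT replicate 1 and Lsp2 had 0 in H3.2-K4R replicate 2. The adult genes Yp1, Yp2, Yp3 and Act88F stayed at or below 2.67 CPM, and the maternal genes bcd, osk and nos at or below 11.6. Counts of bcd went with the replicate number, with 264 and 224 in the libraries numbered 1, against 24 and 33 in those numbered 2. Within 2 of these sums single markers differed: ple had 98.4 and 78.3 CPM in H3.2-WT, against 149 and 132 in H3.2-K4R, while Cht2 had 38.6 and 35.1 against 34.3 and 17.5. Hml had 35.7 and 27.3 CPM in H3.2-WT, against 60.8 and 42.0 in H3.2-K4R, while Pxn had 92.3 and 129.9 against 95.7 and 68.5. None of the tested markers passed by edgeR, and Act88F was too low to test. Over the alternatives, the lowest adjusted p was 0.00053 for ple, 0.0035 for Hml, 0.0188 for Tm2 and 0.0196 for Cht2. The part of these markers in the results was not tested.

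Of the 10 genes, Hr38 rose in H3.2-K4R, by 3.59-fold, and none of the other 9 passed the test in either direction (quasi-likelihood test of edgeR, called at a Benjamini-Hochberg adjusted p under 0.05 over all genes tested). Over all genes tested, 0.588% were called, 0.415% higher and 0.173% lower. No member was called lower, also by DESeq2, and 0 of 10 reached an unadjusted p under 0.05 in that direction, which 9.2% of all genes did. In the higher direction 2 of 10 reached it, Hr38 and Eip74EF, beside 7.68% of all genes. The 10 fold changes had a median of 0.12 on the log2 scale, beside a median of -0.02 over all genes tested. Of the 10, 8 were positive, beside 5563 of all 11562 genes tested. The groups did not overlap in 3 of the 10, Hr38, Eip74EF and Eip78C, each higher in H3.2-K4R. Separate groups were seen in 51% of all genes tested, with H3.2-K4R higher in 23.6% and lower in 27.5%. All values are totals over whole embryos, in which fewer cells of a type and less RNA per cell cannot be told apart.

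**Figure D1:**
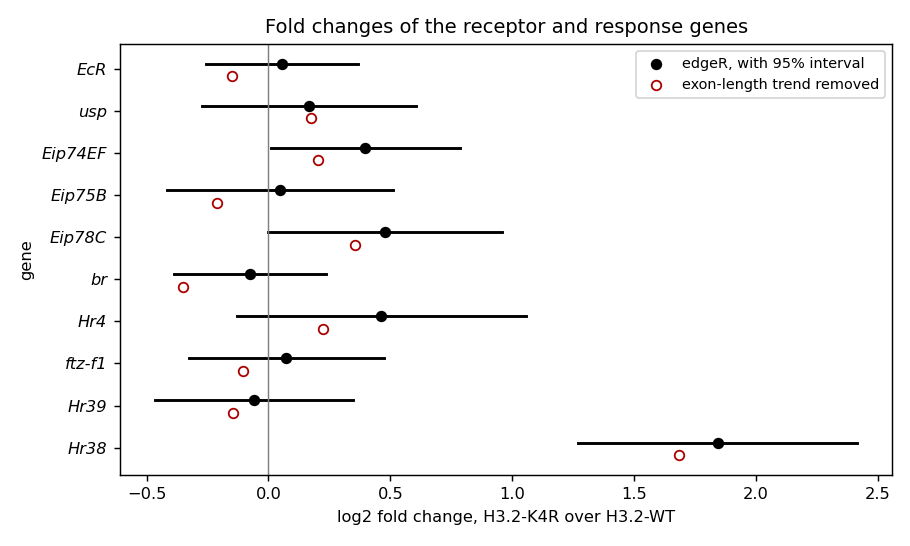
Log2 fold change between H3.2-K4R and H3.2-WT for each of the 10 genes (horizontal axis, positive where H3.2-K4R is higher), with filled points for the edgeR fit, bars for its 95% confidence interval, and open points for the fit with the exon-length trend removed. Hr38 lies at 1.84, while the other 9 genes lie between -0.08 and 0.48.

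The genes differ in size and in the number of places where their transcripts start, and the count table sums all exons of a gene. In build dm6 the counted exons of Eip75B spread over 114 kb of chromosome 3L (17950953 to 18064696), those of br over 89.7 kb of the X (1575132 to 1664869) and those of EcR over 81.2 kb of 2R (6087873 to 6169087). The gene usp spans only 3.51 kb of the X (2038798 to 2042311). Ensembl's annotation lists 16 transcripts with 9 distinct starts for br, 7 starts for Eip75B and 4 for EcR, but a single start for Hr38 and for Hr39. Different starts give different proteins in several of these genes, such as the A, B and C forms of Eip75B, and a shift from 1 form to another at a constant total would not show in these counts. For Eip75B and for br, 1 start each lies outside the exons that were counted. On the same strand, only usp shares exon bases with a neighbour (265 bases, with Actn), and read pairs there that touched both genes were not counted.

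**Figure D2:**
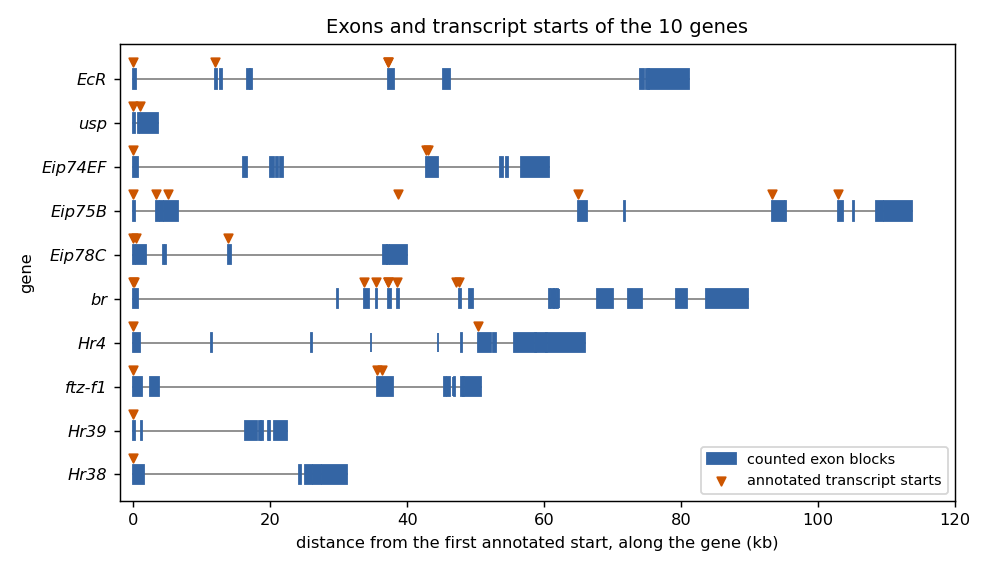
Exon blocks that entered the counts (bars) and transcript starts in Ensembl's annotation (triangles) for the 10 genes, drawn to scale by distance in kb from each gene's first annotated start. Starts of Eip75B and br are spread over 103 and 47.6 kb, while Hr38 and Hr39 have a single start.

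Levels can be compared between genes only per length, here as CPM per kilobase of exon (RPKM). The mean over the 4 libraries was highest for ftz-f1 at 168 RPKM, followed by Eip74EF at 62.5. Below them came EcR at 24.5, Eip75B at 23, br at 18.8, Hr39 at 16.2, Eip78C at 13.0, usp at 11.7 and Hr4 at 11.3, and Hr38 was lowest at 1.57 RPKM. Of the 9 pairs of neighbours in this order, 3 had ranges over the 4 libraries that did not overlap: ftz-f1 and Eip74EF, Eip74EF and EcR, and Hr4 and Hr38. The ranges of the other 6 pairs overlapped, so from EcR down to Hr4 no neighbours were separated beyond the spread between libraries. By mean RPKM ftz-f1 was the gene of rank 410 among the 11562 tested, and Hr38 that of rank 9173. Genes with many alternative exons are understated on this scale, since no single transcript holds all the exons counted in the length.

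**Figure D3:**
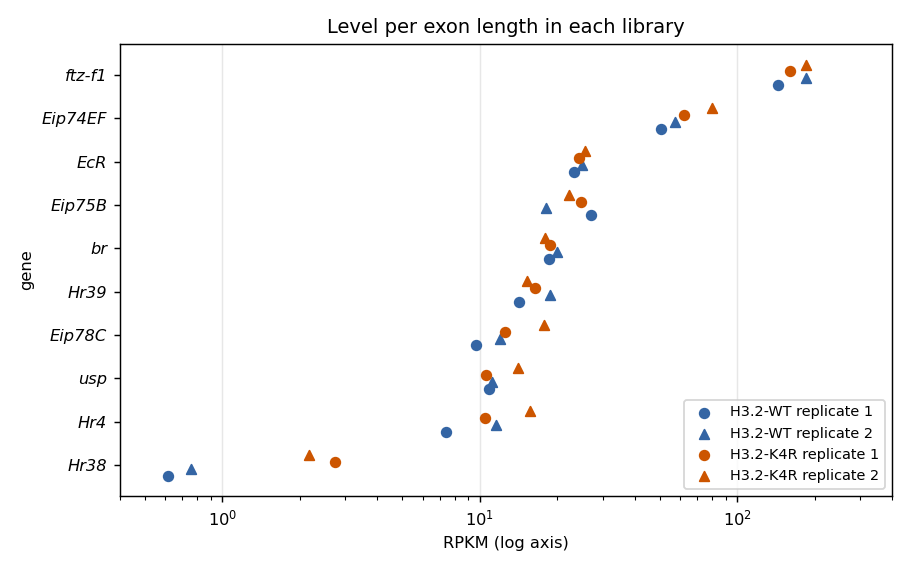
RPKM of each of the 10 genes (vertical axis, ordered by mean) in the 4 libraries, on a log axis, with circles for replicate 1 and triangles for replicate 2. The genes run from 1.57 RPKM in the mean for Hr38 to 168 for ftz-f1, and only in Hr38 does the gap between the groups stand out at this scale.

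The receptor genes come first in the pathway. EcR encodes the hormone-binding subunit, and it had 230 and 248 CPM in the H3.2-WT libraries, against 241 and 255 in the H3.2-K4R libraries. The groups overlapped, and the fold change was 0.06 ± 0.13 on the log2 scale (SE, n = 2 per group; edgeR adjusted p = 0.881). Its 95% interval ran from -0.26 to 0.37, which is a factor of 0.84 to 1.29. The partner gene usp had 32.9 and 34 CPM in H3.2-WT, against 32.2 and 42.8 in H3.2-K4R, with H3.2-K4R replicate 2 alone standing above the other libraries. Its fold change was 0.17 ± 0.19 (edgeR adjusted p = 0.715; interval -0.27 to 0.61). Per exon length, EcR RNA lay at 2.14 and 2.23 times the level of usp RNA in H3.2-WT and at 2.30 and 1.82 times in H3.2-K4R.

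Eip74EF encodes an ETS-domain transcription factor that directly follows the hormone. It had 471 and 536 CPM in H3.2-WT, against 581 and 746 in H3.2-K4R. Both H3.2-K4R libraries were above both H3.2-WT libraries, and the fold change of 0.40 ± 0.17 did not pass the test over all genes (edgeR unadjusted p = 0.046, adjusted p = 0.287). Eip78C, a nuclear receptor gene related to Eip75B and named for its ecdysone-responsive puff, had 57.0 and 70.5 CPM in H3.2-WT, against 73.3 and 104 in H3.2-K4R. Again the groups did not overlap, by a margin of 70.5 against 73.3, and the fold change of 0.48 ± 0.21 did not pass (edgeR adjusted p = 0.299; interval -0.0034 to 0.96). In both genes H3.2-K4R replicate 2 was the highest library: without it, the fold changes were 0.21 and 0.20, and without H3.2-K4R replicate 1 they were 0.56 and 0.71, none of them past the threshold.

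Eip75B, a heme-binding nuclear receptor that represses transcription and blocks activation by Hr3, had 346 and 231 CPM in H3.2-WT, against 314 and 282 in H3.2-K4R. Both H3.2-K4R values lay between those of H3.2-WT. The H3.2-WT libraries differed 1.5-fold from each other, and the fold change between groups was 0.05 ± 0.20 (edgeR adjusted p = 0.938; interval -0.42 to 0.51). Relative to Eip75B, CPM of Eip74EF was 1.36 and 2.32 times as high in H3.2-WT, against 1.85 and 2.65 times as high in H3.2-K4R, so that this ratio between 2 early genes varied as much within groups as between them. The gene br encodes a family of BTB zinc finger proteins that specify pupal development. It had 300 and 322 CPM in H3.2-WT, against 303 and 287 in H3.2-K4R, and a fold change of -0.08 ± 0.13 (edgeR adjusted p = 0.831; interval -0.39 to 0.23). It was among the most even of the 10 genes across libraries, together with EcR.

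The later receptor genes follow. Hr4 encodes a nuclear receptor that in prepupae represses early genes and helps to activate ftz-f1. It had 103 and 161 CPM in H3.2-WT, against 146 and 218 in H3.2-K4R. The groups overlapped, since H3.2-K4R replicate 1 lay below H3.2-WT replicate 2, and the libraries differed 1.57-fold within H3.2-WT, against 1.5-fold within H3.2-K4R. The fold change was 0.46 ± 0.26 (edgeR adjusted p = 0.411), and its interval of -0.13 to 1.05 spans a slight fall and a 2.08-fold rise. The value moved with single libraries and never passed: it was 0.14 without H3.2-K4R replicate 2, 0.72 without H3.2-K4R replicate 1, and 0.19 or 0.82 when the first or the second H3.2-WT library was left out. The gene ftz-f1 encodes a receptor with a maternal form that works with the pair-rule protein Ftz and a later form that serves as a competence factor before moults. It had 1211 and 1552 CPM in H3.2-WT, against 1349 and 1557 in H3.2-K4R, with a fold change of 0.07 ± 0.17 (edgeR adjusted p = 0.88; interval -0.33 to 0.47). It alone made up between 42.9% and 47.7% of the read pairs counted on the 10 genes. Hr39, a receptor gene of the same subfamily as ftz-f1, had 71.0 and 93.4 CPM in H3.2-WT, against 81.8 and 76.1 in H3.2-K4R. Both H3.2-K4R values lay between those of H3.2-WT, and the fold change was -0.06 ± 0.18 (edgeR adjusted p = 0.906; interval -0.47 to 0.35).

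**Figure D4:**
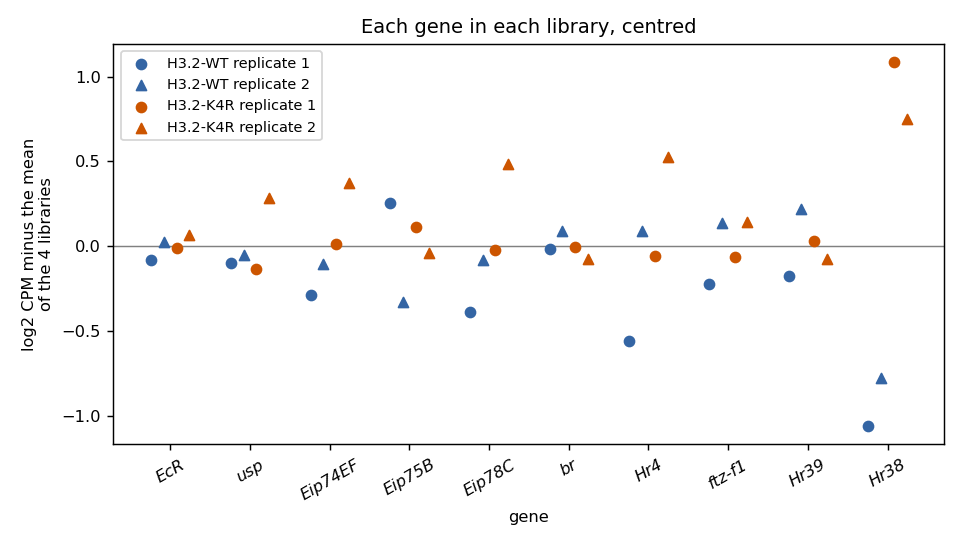
Log2 CPM of each gene in each library minus the mean of the 4 libraries (vertical axis), with colours for the groups and symbols for the replicates. Apart from Hr38, H3.2-K4R replicate 2 is the highest library for 6 genes and H3.2-WT replicate 1 the lowest for 6 genes. Except in Hr38 and Eip74EF, the libraries of at least 1 group differ by a larger factor than the group means.

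In most of the 10 genes the spread inside the groups was therefore large beside the difference between them. In 8 of the 10 genes the libraries of at least 1 group differed by a larger factor than the group means did, the exceptions being Hr38 and Eip74EF. Among the 9 genes other than Hr38, H3.2-K4R replicate 2 was the highest library for 6 and H3.2-WT replicate 1 the lowest for 6. No such counts over all genes are given here, so they cannot be read as particular to this set. Centred on the mean of the libraries, the median of these 9 genes was -0.17 in H3.2-WT replicate 1, 0.03 in H3.2-WT replicate 2, -0.01 in H3.2-K4R replicate 1 and 0.14 in H3.2-K4R replicate 2. H3.2-K4R replicate 2 is also the library that stood apart over all genes. Exon length moved with the result too: the 10 genes have a median exon length of 8882 bases against 1903 over all genes tested. With the trend of fold change on exon length removed, the fold changes of EcR (-0.15), Eip75B (-0.21) and ftz-f1 (-0.10) were negative. In that fit br was at -0.35 (edgeR unadjusted p = 0.0189, adjusted p = 0.247). Eip74EF was at 0.20, Eip78C at 0.36 and Hr4 at 0.22, and the median of the 10 was 0.04. The part of exon length in these values was not tested further.

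Hr38 is the fly member of the nuclear receptor family that includes mammalian Nur77. Its protein can replace EcR as a partner of Usp, it is needed for adult cuticle and for glycogen stores in larvae, and its RNA is a marker of recent activity in adult fly neurons. The gene (FBgn0014859) lies on the minus strand of chromosome 2L, from 20683462 to 20714588 in build dm6. Its counts were 162 and 269 for H3.2-WT, against 902 and 605 for H3.2-K4R, or 4.75 and 5.80 CPM against 21.2 and 16.7. The lowest H3.2-K4R library lay well above the highest H3.2-WT library, and in contrast to Eip74EF, Eip78C and Hr4 it was H3.2-K4R replicate 1 that was highest. The fold change was 1.84 ± 0.25 on the log2 scale (edgeR adjusted p = 0.0299; interval 1.27 to 2.42), which is a factor of 2.41 to 5.34, and Hr38 had rank 31 by p among all genes tested. With the exon-length trend removed it was 1.68 (adjusted p = 0.0291).

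The rise of Hr38 did not rest on H3.2-K4R replicate 2, without which it was 2.0 (edgeR adjusted p = 0.0158), nor on H3.2-K4R replicate 1 (1.66, adjusted p = 0.0113). Without H3.2-WT replicate 1 or 2 the fold changes were 1.72 and 1.99. Hr38 was called in neither of these fits, which keep 1 H3.2-WT library. Calls over all genes were also fewer in both, so the loss is not particular to Hr38. Neuron markers summed to 1223 and 1390 CPM in H3.2-WT against 1421 and 1495 in H3.2-K4R. Their part in the rise of Hr38 was not tested. Exons of CG2617 overlap those of Hr38 on the opposite strand, and strand was used in counting.

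Over the 4 libraries, the genes whose centred log2 CPM lay closest to Hr38 by Euclidean distance were CG7214 (0.289), CG8620 (0.317), the maltase gene Mal-A1 (0.368), Prat2 of purine synthesis (0.439) and the maltase gene Mal-B1 (0.441). CG7214 went from 12.1 to 44.7 CPM between the group means, Mal-A1 from 22.7 to 71.2 and Prat2 from 17.0 to 49.3. These 3 passed the test (edgeR adjusted p of 0.00947, 0.0208 and 0.0224), and CG8620 (0.0547) and Mal-B1 (0.0885) did not. Without H3.2-WT replicate 1 the log2 fold changes of CG7214, Mal-A1 and Prat2 were 1.84, 1.75 and 1.41. With H3.2-WT replicate 2 left out instead they were 1.95, 1.57 and 1.68. None of the 3 was called in these fits, in which calls over all genes were also fewer. With 4 libraries, closeness of this kind mostly restates the difference between the groups.

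The other genes of the pathway were read in fixed lists. Of 25 other ecdysone-induced genes 23 were tested: ImpL2 rose, 22 did not pass, and 0 were called lower (none by DESeq2, and none with an unadjusted p under 0.05). Of the 23, 20 had positive fold changes, beside 5563 of all 11562 genes tested. The median of the 23 was 0.39, against -0.02 over all genes tested. Without overlap of the groups, 16 lay higher in H3.2-K4R and 3 lower, beside 23.6% and 27.5% of all genes. The 16 include Fbp1, with at most 11 counts in any library. At an unadjusted p under 0.05, 12 were higher, against 7.68% of all genes. The median library values of this list, centred, were -0.22 and -0.17 in H3.2-WT, against 0.15 and 0.30 in H3.2-K4R, with both H3.2-K4R libraries above both H3.2-WT libraries. The median was 0.51 once the trend with exon length was removed.

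ImpL2 encodes a secreted protein that binds insulin-like peptides and dampens insulin signalling, and it was first found as a gene induced by ecdysone in imaginal discs. It had 148 and 123 CPM in H3.2-WT, against 283 and 299 in H3.2-K4R. Both H3.2-K4R libraries were far above both H3.2-WT libraries, and the fold change was 1.11 ± 0.15 on the log2 scale (edgeR adjusted p = 0.03). Without H3.2-WT replicate 1 its fold change was 1.26, and 0.97 when H3.2-WT replicate 2 was left out. ImpL2 was called in neither of these fits, in which calls over all genes were also fewer. The next by p were ImpE2, a further disc gene, with 9.92 and 13.7 CPM against 23.1 and 35.1 (1.30 ± 0.26), the bZIP factor gene vri with 15.2 and 18.7 against 30.3 and 32.8 (0.89 ± 0.19), and Blimp-1, a zinc finger repressor that times ftz-f1 in prepupae, with 3.87 and 3.92 against 10.8 and 9.19 (1.36 ± 0.29). None of these 3 passed by edgeR (adjusted p of 0.0931, 0.0954 and 0.098). DESeq2 called all 3 higher and 5 of the list higher, but it called more genes throughout. Over all genes it called 358 higher and 307 lower, against 48 and 20 by edgeR. With 1 library left out, the median of the list in edgeR ranged from 0.33 to 0.46. The other 2 genes of this list were too low to test: Eip63F-2 had 9 counts in each H3.2-WT library and 0 in H3.2-K4R, while Edg84A had 20 counts in H3.2-WT replicate 2 and 0 elsewhere.

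**Figure D5:**
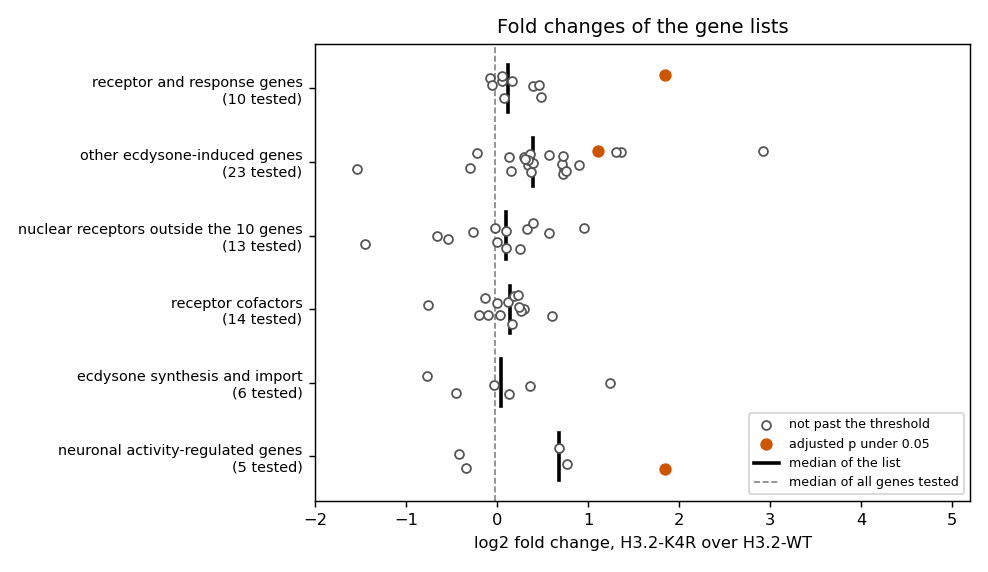
Log2 fold change between H3.2-K4R and H3.2-WT (positive where H3.2-K4R is higher) for the tested genes of 6 lists (1 point per gene), with thick lines at each list's median and a dashed line at the median of all genes tested, -0.02. Filled points passed the edgeR test: Hr38, which stands in 2 lists, and ImpL2. Hr3, which did not pass, also stands in 2 lists. The median of the other ecdysone-induced genes is 0.39.

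Among the 13 nuclear receptor genes outside the 10, 0 passed by edgeR, none passed by DESeq2, and 1 higher and 1 lower had an unadjusted p under 0.05. The median was 0.10. The 1 higher gene was Hr3, which also stands among the other ecdysone-induced genes and is counted in both lists. ERR, which directs sugar metabolism in the embryo, had 22.4 and 26.7 CPM in H3.2-WT, against 16.6 and 17.1 in H3.2-K4R (-0.54 ± 0.19, adjusted p = 0.216). Hr3, the receptor that acts between the early genes and ftz-f1, had 25.6 and 29.6 CPM against 32.9 and 49.1 (0.57 ± 0.22, adjusted p = 0.253), with 0.83 (adjusted p = 0.0391) on leaving out H3.2-K4R replicate 1 and 0.26 (0.636) on leaving out H3.2-K4R replicate 2. Per exon length ftz-f1 RNA exceeded Hr3 RNA 60.4-fold and 66.9-fold in H3.2-WT, against 52.2-fold and 40.4-fold in H3.2-K4R. Hr96, a receptor of lipid and toxin metabolism, had 0.33 ± 0.16, and dsf, known from neurons of sexual behaviour, had -1.45 ± 0.74 (adjusted p = 0.34 and 0.365). Without H3.2-K4R replicate 1, 1 gene was called higher and 1 lower, Hr3 and dsf (-3.17, adjusted p = 0.0222), with a list median of -0.02. In H3.2-K4R replicate 2 dsf had only 17 counts, and without that library it was at -0.70 (adjusted p = 0.593).

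Of 14 receptor cofactor genes, 0 passed by edgeR (0 by DESeq2; 1 higher and 0 lower with an unadjusted p under 0.05) and the median was 0.14. Iswi, the ATPase of nucleosome remodelling complexes, had 38.6 and 36.9 CPM in H3.2-WT, against 49.2 and 65.5 in H3.2-K4R (0.60 ± 0.19, adjusted p = 0.19; 0.79 and 0.033 without H3.2-K4R replicate 1, and 0.38 and 0.421 without H3.2-K4R replicate 2). The EcR cofactor gene rig had -0.76 ± 0.36, the coactivator gene tai 0.29 ± 0.15 and the corepressor gene Smr 0.26 ± 0.14 (adjusted p = 0.335, 0.37 and 0.42). The last 2 were at 0.07 and -0.01 with the exon-length trend removed, and the list median was then -0.02. Without H3.2-K4R replicate 2 the list median was 0.04.

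The enzyme genes of ecdysone synthesis were low, phm being the highest with at most 4.76 CPM. Of 7 enzyme genes of ecdysone synthesis and the importer gene Oatp74D, 6 passed the filter and 0 passed the edgeR test (none by DESeq2, and none with an unadjusted p under 0.05). Oatp74D, through which ecdysone enters cells, had 48.4 and 49.6 CPM in H3.2-WT, against 78.0 and 48.1 in H3.2-K4R. Its fold change was 0.36 ± 0.23 and was at -0.03 without H3.2-K4R replicate 1. The hydroxylase gene phm, with 144 and 221 counts in H3.2-WT, against 151 and 109 in H3.2-K4R, had -0.45 ± 0.37. For sro (1.24 ± 1.38) and sad (-0.78 ± 1.70) the counts were at most 33 per library, and a difference was not detectable at this depth. Outside the hormone pathway, Hr38 belongs to a group of 5 genes induced by activity in adult fly neurons. Of the other 4, 0 passed by edgeR (1 higher at an unadjusted p under 0.05), and DESeq2 and limma-voom each called 1 higher. This was sr, the factor gene that specifies tendon cells in the embryo, with 162 and 176 CPM in H3.2-WT, against 279 and 295 in H3.2-K4R (0.76 ± 0.14, edgeR adjusted p = 0.0683; 0.80 and 0.0172 without H3.2-K4R replicate 1, and 0.72 and 0.101 without H3.2-K4R replicate 2). CG14186 had 0.68 ± 0.31 and CG17778 -0.42 ± 0.26 (edgeR adjusted p = 0.318 and 0.453). Of the 5 genes, Hr38 included, 3 had positive and 2 had negative fold changes. The median of the 5 was 0.68, and 0.24 without H3.2-K4R replicate 1.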

How the data were processed

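RNA-seq counts of 4 libraries were used, all 4 columns of per-sample values. The authors deposited raw counts of read pairs per gene. Per the file headers, these are featureCounts 2.0.6 totals over the exons of each gene, stranded, without multi-mapping pairs or pairs over several genes. Tools named in the submitters' processing notes are Subread 2.0.6, SAMtools 1.9 and STAR 2.7.7a, with build dm6. The wild-type columns are headed HWT and were matched to H3.2-WT by replicate number and stage. Whether replicates were separate collections is not stated in the labels, and p-values then measure only a spread between libraries that may be technical.

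Genes were filtered with filterByExpr (minimum count 10, minimum total 15), normalised by TMM and tested with edgeR 4.0.16 in R 4.3.3 by the quasi-likelihood test, with Benjamini-Hochberg adjustment over 11562 genes and calls at an adjusted p under 0.05. Each fold change is the log2 ratio of H3.2-K4R to H3.2-WT, with its SE and a 95% interval. Centred values use log2 CPM with a prior count of 2. No exact permutation test is given, since with 2 libraries a group its smallest two-sided p is 0.333. The fit was also run on simulated counts with known changes. These held no outlying library and no exon-length trend, so they cannot show how the fit deals with either. Alternatives were RLE factors, DESeq2 1.42.0, limma-voom (limma 3.58.1), no filter, a replicate block, removal of the exon-length trend and each library left out.

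The members, lists and tests were chosen with earlier results of these data known. The text names all 10 members, from each list the 4 genes with the lowest p and any past the threshold, and the 5 tested genes (mean log2 CPM of at least 1) closest to the member with the lowest p. Eip63F-2 and Edg84A were named after their values were seen. The files match Hr3 as Hr46 and HDAC1 as Rpd3. Transcript starts come from Ensembl release 115, which uses dm6 coordinates. No sequences are shown.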

Additional observations from a re-analysis of the deposited data

How the results depend on the processing

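Over the 10 alternatives, 91 of 100 fold changes of the 10 genes had their main direction, and the 9 that turned were at most 0.216 in size, none past the threshold: EcR (-0.15), Eip75B (-0.21) and ftz-f1 (-0.10) with the exon-length trend removed, and usp, Eip75B, ftz-f1 and Hr39 on leaving out 1 library, over which they ranged from -0.054 to 0.36, -0.22 to 0.38, -0.082 to 0.26 and -0.23 to 0.15. Hr38 kept its direction in all 10, at 1.66 to 2.0 with 1 library left out, and lost its call without H3.2-WT replicate 1 (1.72) or 2 (1.99). Smr turned to -0.010 with the trend removed, and Oatp74D (-0.029 to 0.67) and sad (-7.67 to 0.21) on leaving out 1 library. Counts over all genes moved most: 48 higher and 20 lower became 358 and 307 by DESeq2, 101 and 72 by limma-voom, 452 and 527 without a filter, 608 and 758 with a replicate block, and 87 higher with the trend removed, and ranged from 1 to 251 and 0 to 587 with 1 library left out. Without a filter and with the block, the median degrees of freedom per gene in edgeR were 27738 and 11562, against 7.85. The replicate block called 3 members higher (Hr38, Hr4 at 0.47 and Eip78C at 0.46, adjusted p = 0.0203 and 0.0475), 1 other nuclear receptor gene higher and 1 lower, 1 cofactor gene, 8 other ecdysone-induced genes and, besides Hr38, 1 activity-regulated gene higher. The labels do not say that the numbers pair the libraries, and deviations of same-numbered libraries correlated across genes at 0.106 with only 2 pairs. Of the other ecdysone-induced genes 5 were called higher by DESeq2, 6 without a filter and 2 with the trend removed (median 0.51), and 0 to 6 with 1 library left out. Without a filter 1 cofactor gene was called higher, and 1 activity-regulated gene besides Hr38 was by DESeq2, by limma-voom and without a filter. With the trend removed the median was -0.0059 for the nuclear receptors outside the 10 and -0.018 for the cofactors. With 1 library left out, 0 to 1 of the members, the nuclear receptors outside the 10, the cofactors and the activity-regulated genes besides Hr38 were called higher, 0 to 1 nuclear receptors outside the 10 lower, and the medians ranged from 0.07 to 0.26, -0.020 to 0.053, 0.042 to 0.21 and 0.24 to 0.72 in the order of these lists, and from 0.33 to 0.46 for the other ecdysone-induced genes. The cause of these differences was not tested. Depth limits sro and sad, with at most 33 counts per library.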
